A study of Homo sapiens with 4 samples.

Results

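Glycolysis and the pentose phosphate pathway are represented here by 31 genes, comprising the glycolytic enzymes from hexokinase to pyruvate kinase, their isozymes and regulators, the 2 main glucose transporters, 6 enzymes of the pentose phosphate pathway and 2 phosphoglucomutases. The genes were taken as a list by symbol, and each was found once among the 60564 gene identifiers of the count files. RNA-seq was performed on Elf1, a naïve human embryonic stem cell (ESC) line, in 2 culture conditions with 2 libraries each, which the study's methods call independent biological replicates. The 2-D cells were grown adherent on plastic coated with Matrigel, a basement membrane extract. The 3-D cells were dispersed to single cells, encapsulated in a scaffold of PEG-8-SH and PEG-8-Acr as it self-assembled, and kept there for 21 days. Per the study's methods, both conditions shared the ESC expansion medium, which holds LIF, FGF2, sodium pyruvate, CHIR99021 and PD03296501, and the cells had been moved from mouse feeders to feeder-free Matrigel before encapsulation. All 4 libraries come from 1 cell line, so the error is that of this line, and no library separates 3-D growth from the time in the scaffold.

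Glycolysis splits glucose into pyruvate in the cytosol. In its hexose steps the sugar is taken up, phosphorylated at the cost of ATP and cleaved into trioses, and in its triose steps ATP and NADH are recovered. The pentose phosphate pathway branches off at glucose phosphate. Its oxidative arm yields NADPH and ribulose phosphate, and its non-oxidative arm interconverts pentoses with sugars of glycolysis. Pluripotent cells are known for a high glycolytic flux, and naïve human ESCs for using respiration beside it.

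The counts of a library totalled between 18276147 and 21154409 in 3-D and between 30114220 and 33833778 in 2-D, and the members held 0.848% to 0.875% of them. Levels are given as CPM, counts scaled to a library of 1000000 after edgeR's TMM normalization, and levels of different genes are compared as CPM per kilobase of merged exons. Fold changes express 3-D relative to 2-D growth. A gene is called at an adjusted p below 0.05 in the quasi-likelihood test of edgeR, with p-values adjusted by Benjamini-Hochberg over the 22555 genes that passed its filter on low counts. Mitochondrially encoded genes took 8.33% and 8.50% of the counts in 3-D and 5.10% and 5.30% in 2-D, and whether this moved with the members was not tested. None of 9 core pluripotency genes was called, with a summed level of 4487 to 4593 CPM in 3-D and 4491 to 4519 CPM in 2-D. Of 10 naïve pluripotency genes 8 were tested and 1 was called, KLF5, higher in 3-D at a log2 fold change of 0.26 (adjusted p = 0.00336, edgeR). The 10 genes summed to 123 and 120 CPM in 3-D and 110 and 113 CPM in 2-D. KLF5 alone was at 56.25 and 57.23 CPM in 3-D and 46.93 and 47.96 CPM in 2-D. Of the others tested, TFCP2L1, DPPA3 and DNMT3L had log2 fold changes below 0. KLF4, SUSD2, KLF17 and ARGFX were above 0, and none of these was called. KLF17, ARGFX, DPPA5 and KHDC1L were at 1.07 CPM or less in every library. Of 8 fibroblast genes 6 were tested and 3 were called higher in 3-D, COL1A1, COL3A1 and POSTN. COL1A2, the most abundant, PDGFRB and PDGFRA were not called, at log2 fold changes of -0.04, 0.02 and 0.30. DCN and LUM were at 0.95 CPM or less in every library. The summed level of the 8 genes was 468 and 513 CPM in 3-D and 459 and 467 CPM in 2-D. Their part in the results was not tested.

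Between the conditions, all tested members except ALDOA differed by at most 0.26 on the log2 scale, and 8 differences were called. ENO3, PGD, PKM, PGAM1, PFKP and TKT were called higher in 3-D grown cells, and RPE and ALDOA were called lower. Of the 31 genes 30 were tested, so 8 of 30 were called, against 7.9% of all tested genes, 6 of them higher, against 4.54%, and 2 lower, against 3.36%. Among genes with a mean of at least 10 CPM, where the test resolves smaller differences, 7 of 28 members were called, against 15.1% of all such genes. The list was chosen with earlier results of these data known, and the counts of ALDOA are uncertain, so these shares are only a description. The median log2 fold change of the 30 members was 0.01, with 16 values above 0 and 14 below, against a median of -1e-04 over all tested genes. Both 3-D libraries lay above both 2-D libraries in 11 members, against 25.4% of all tested genes, and below both in 11 others, against 25.1%. The largest change among the 22 members that were not called was a log2 fold change of -0.26, for PFKFB4. Dropping 1 library leaves a single library in its condition, and the spread is then estimated from the other condition alone. Replicates differed more in 3-D than in 2-D, so passing or failing in these refits also depends on which condition lost a library. Effect sizes are therefore given for them. The median log2 fold change of the members then lay between -0.0054 and 0.0112. Each of the 8 called members kept its direction, with PGAM1 between 0.09 and 0.24 and ALDOA between -1.29 and -0.54. The calls of PFKP, PGAM1, RPE and TKT were lost in some of these refits. In bulk libraries such as these, less RNA per cell and fewer cells that express a gene cannot be told apart.

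**Figure D1:**
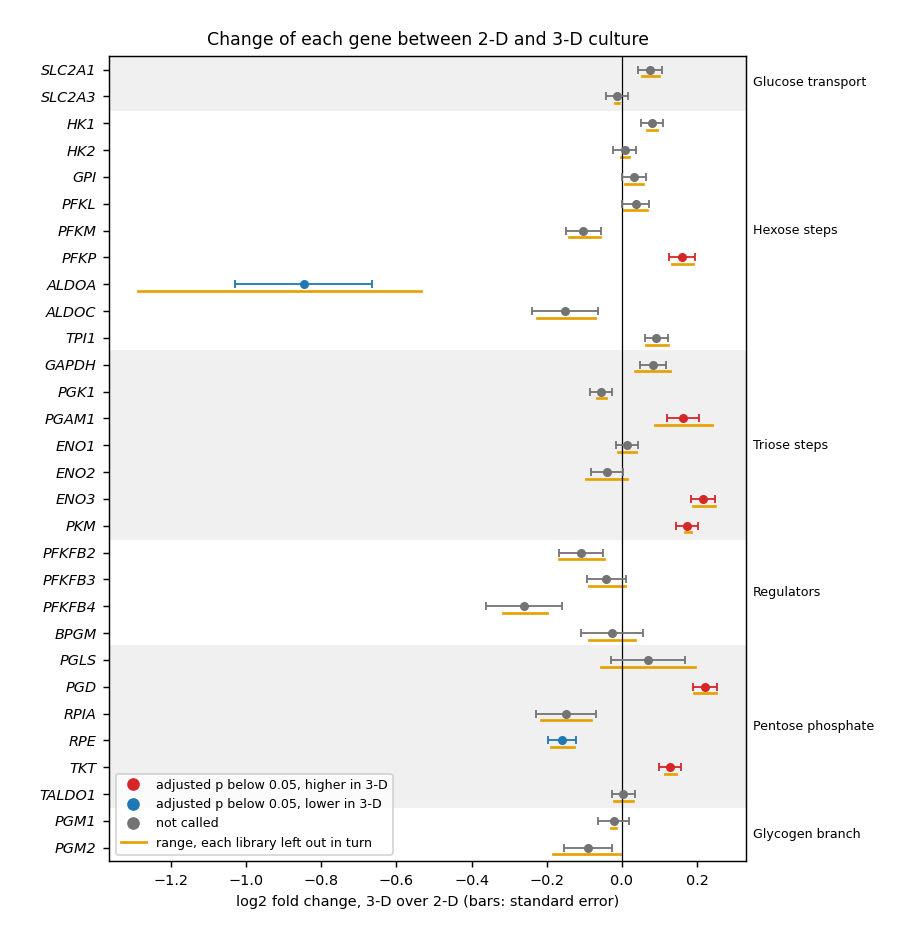
Log2 fold change, 3-D relative to 2-D (x axis) for each of the 30 tested genes (y axis, ordered by pathway step), with bars of 1 standard error; red and blue points are called higher and lower, grey points are not called, and the yellow line below each point spans the values with each library left out in turn. All points lie between -0.26 and 0.22 except ALDOA at -0.85.

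The result depended on the scaling of the libraries. With library totals in place of TMM factors, the median of all tested genes was -0.06 on the log2 scale, 3 members were called higher (ENO3, PGD and PKM), and 4 were called lower (ALDOA, RPE, PFKM and PGK1). The same change took the calls over all tested genes from 1024 higher and 758 lower to 514 higher and 1879 lower. The calls of ENO3, PKM and PGD were made in each of 11 alternative settings and with each of the 4 libraries left out.

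Levels differed far more between members than between conditions. GAPDH, which oxidises glyceraldehyde phosphate, was the most abundant member per length at 747 CPM per kilobase in 2-D and 790 in 3-D. ENO1, the main enolase, followed at 312 and 315 CPM per kilobase, TPI1, the triose phosphate isomerase, at 146 and 155, and PGK1, the first ATP-yielding kinase of the pathway, at 131 and 126. PGAM1, PGD, PKM, SLC2A3, TKT and HK1 lay between 51.7 and 88.7 CPM per kilobase. The order of these genes depends on the length that is used: per kilobase of the canonical transcript in place of merged exons, PKM was at 275 CPM in 2-D and PGK1 at 148. At the low end, ALDOA and PFKFB4 were at 2.06 and 1.69 CPM per kilobase in 2-D. Of the merged exon bases of ALDOA 54.2% are shared with other counted genes, so its level and rank are uncertain. HKDC1, a hexokinase-like gene, had 13 counts in each 2-D library and 7 and 6 counts in the 3-D libraries, and did not pass the filter on low counts.

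**Figure D2:**
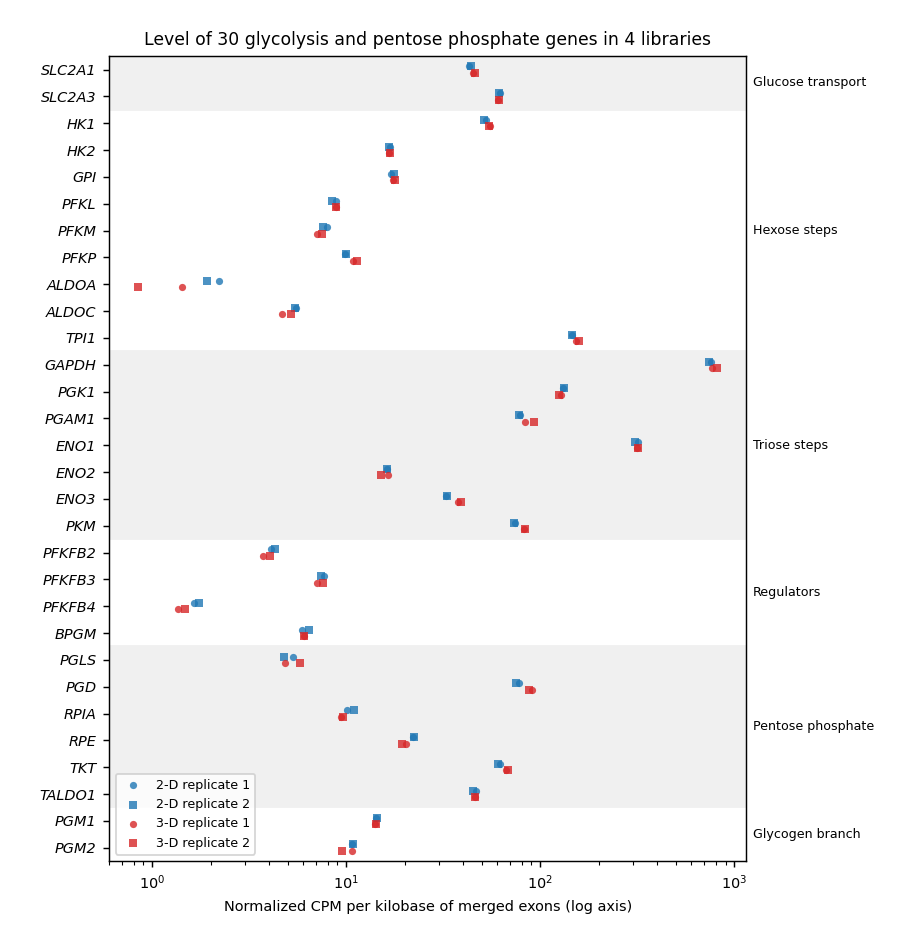
Level of each of the 30 tested genes (y axis, ordered by pathway step) in each library (points, 2-D in blue and 3-D in red), in normalized CPM per kilobase of merged exons on a log axis. ALDOA (means of 2.06 in 2-D and 1.13 in 3-D) and PFKFB4 (1.69 and 1.41) lie lowest and GAPDH (747 and 790) highest, while the 4 libraries of a gene lie close together, ALDOA excepted. The level of ALDOA is uncertain, as it shares exons with other counted genes.

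Glucose uptake showed no called change. SLC2A1, the basal glucose transporter GLUT1, was at 282 and 290 CPM in 2-D and 296 and 306 CPM in 3-D. Both 3-D libraries were the higher ones, yet the log2 fold change of 0.07 ± 0.03 (SE) did not pass (adjusted p = 0.193, edgeR). With each library left out it lay between 0.05 and 0.10. SLC2A3, the high-affinity transporter GLUT3, was at 448 and 445 CPM in 2-D and 441 and 444 CPM in 3-D, a log2 fold change of -0.01 ± 0.03 (adjusted p = 0.855, edgeR). SLC2A3 made up 58.7% ± 0.601 (SD, n = 2) of the pair per length in 2-D and 57.3% ± 0.426 (SD, n = 2) in 3-D.

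Of the hexose steps, only PFKP and ALDOA were called. HK1 and HK2 phosphorylate glucose on entry, and HK1 was the leading isozyme at 359 and 352 CPM in 2-D and 379 and 373 CPM in 3-D. The higher values in 3-D gave a log2 fold change of 0.08 ± 0.03 that did not pass (adjusted p = 0.142, edgeR). With each library left out it lay between 0.07 and 0.09. HK2 lay between 97.7 and 99.5 CPM in all 4 libraries. GPI, which isomerises glucose phosphate to fructose phosphate, lay between 181 and 190 CPM.

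Phosphofructokinase commits the sugar to glycolysis and has platelet, muscle and liver type subunits. PFKP, the platelet type, was at 76.7 and 77.5 CPM in 2-D and 84.5 and 87.9 CPM in 3-D. The libraries did not overlap, and the log2 fold change of 0.16 ± 0.04 passed (adjusted p = 0.0159, edgeR). The call was lost without 2-D replicate 1 or 2-D replicate 2, at log2 fold changes of 0.15 and 0.17. With library size only the log2 fold change was 0.10 (adjusted p = 0.138), and DESeq2, the likelihood ratio test and the offsets for length and GC content gave adjusted p of 0.144, 0.0700 and 0.0574. PFKM, the muscle type, was at 57.9 and 54.8 CPM in 2-D and 51.0 and 54.1 CPM in 3-D, and its log2 fold change of -0.10 ± 0.05 did not pass (adjusted p = 0.239, edgeR). PFKL, the liver type, lay between 75.5 and 79.2 CPM in all libraries. Within the step, the share of PFKP per length was 37.7% ± 0.961 (SD, n = 2) in 2-D and 40.7% ± 0.251 (SD, n = 2) in 3-D, and that of PFKM was 29.5% ± 0.572 and 26.7% ± 0.504. Both shares separated the conditions, and the exact two-sided permutation p of 0.333 is the smallest that 2 libraries against 2 can give.

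The PFKFB enzymes set the level of the fructose 2,6-bisphosphate that activates phosphofructokinase. PFKFB3 held 56.2% of their summed level per length in 2-D and 58.1% in 3-D, PFKFB2 31.2% and 30.7%, and PFKFB4 12.6% and 11.2%. PFKFB4 was at 10.05 and 10.6 CPM in 2-D and 8.27 and 8.98 CPM in 3-D. It had the largest change among members that were not called, with an SE of 0.10 and an adjusted p of 0.153 by edgeR. Their summed level was 98.9 CPM ± 0.982 (SD, n = 2) in 2-D and 92.9 CPM ± 4.92 (SD, n = 2) in 3-D, and none of the 3 was called.

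Aldolase cleaves fructose 1,6-bisphosphate into trioses, and ALDOA (chr16:30064164-30070457, ENSG00000149925) had the largest change of all members. It had 290 and 227 counts in 2-D and 112 and 58 counts in 3-D, or 8.42 and 7.37 CPM against 5.45 and 3.24 CPM. The 3-D libraries were both lower and also differed most from each other, and the log2 fold change of -0.85 ± 0.18 passed (adjusted p = 0.0131, edgeR). Leaving out 3-D replicate 2 gave -0.54 and leaving out 3-D replicate 1 gave -1.29, and DESeq2 gave no adjusted p for this gene. The counts of ALDOA are uncertain. On its own strand, exons of the gene ENSG00000285043 (chr16:30053123-30070414) cover 89.8% of the canonical ALDOA transcript, and how reads in shared exons were counted is not given in the sources used here. ENSG00000285043 itself had 15 and 18 counts in 2-D and 10 and 6 in 3-D, and no more reads than these can have been counted for both genes. The counts of ALDOA, and its change, may thus describe its unshared exons more than its whole transcript. On the opposite strand, the overlapping gene ENSG00000274904 had 496 and 435 counts in 2-D and 321 and 274 in 3-D, more than ALDOA in each library, and was not called (log2 fold change 0.12, adjusted p = 0.463). TPI1, the next enzyme, had 46.8 to 132 times as many counts as ALDOA in the same library. ALDOC, the brain type aldolase, was at 14.3 and 14.2 CPM in 2-D and 12.2 and 13.6 CPM in 3-D and was not called (adjusted p = 0.369, edgeR).

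TPI1, which interconverts the trioses, was at 394 and 392 CPM in 2-D and 410 and 428 CPM in 3-D, a log2 fold change of 0.09 ± 0.03 that did not pass (adjusted p = 0.105, edgeR). It passed with no filter on low counts (adjusted p = 0.0385), and lay between 0.06 and 0.12 with each library left out. One near-identical copy, the pseudogene TPI1P1, matches its canonical transcript at 98.1% identity, and the 4 TPI1 pseudogenes together had 1.47% to 2.099% of the counts of TPI1.

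Among the triose steps, ENO3, PKM and PGAM1 were called higher, and the more abundant GAPDH, ENO1 and PGK1 were not called. The summed level of the 7 genes was 5226 and 5121 CPM in 2-D and 5311 and 5473 CPM in 3-D, with means 4.22% apart. GAPDH, also a reference gene for qRT–PCR in the study, was at 1815 and 1763 CPM in 2-D and 1832 and 1955 CPM in 3-D. Its log2 fold change of 0.08 ± 0.04 did not pass (adjusted p = 0.200, edgeR), and it passed with no filter on low counts (adjusted p = 0.00704). With each library left out it lay between 0.04 and 0.13. GAPDH overlaps ENSG00000269968, a gene on the opposite strand whose 422 exon bases all lie in exons of GAPDH. That gene had 24607 and 21250 counts in 2-D and 14881 and 12611 in 3-D, where GAPDH had 62517, 54315, 37648 and 35047, so the split of reads between them rests on how strand was counted, which is not given in the sources used here.

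PGK1 was at 711 and 717 CPM in 2-D and 692 and 681 CPM in 3-D, the only one of the 7 triose genes with both 3-D libraries below both 2-D libraries. Its log2 fold change of -0.06 ± 0.03 did not pass (adjusted p = 0.308, edgeR). PGAM1 (chr10:97426191-97433444, ENSG00000171314), the phosphoglycerate mutase, was at 200 and 197 CPM in 2-D and 211 and 234 CPM in 3-D. It passed at a log2 fold change of 0.16 ± 0.04 (adjusted p = 0.0341, edgeR), with 3-D replicate 2 well above the other libraries. Leaving out 3-D replicate 2 gave 0.09 and leaving out 3-D replicate 1 gave 0.24, and the call was lost without 2-D replicate 2. It was also lost with library size only (log2 fold change 0.10, adjusted p = 0.198). The likelihood ratio test and thinning of 2-D counts to the depth of 3-D gave adjusted p of 0.102 and 0.0815. PGAM1 has 2 near-identical copies on chromosome 12, at 99.6% and 99.4% identity, and neither is annotated under a PGAM1 pseudogene name. The 13 pseudogenes named after PGAM1 together had 1.006% to 1.89% of its counts. Counts on the 2 copies are not among them and were not examined. BPGM, which makes the bisphosphoglycerate that serves the mutase as cofactor, lay between 15.0 and 16.3 CPM in all libraries.

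Enolase makes phosphoenolpyruvate. ENO3 (chr17:4948092-4957131, ENSG00000108515), the muscle type, was at 141 and 142 CPM in 2-D and 161 and 167 CPM in 3-D. Both 3-D libraries were higher, and the log2 fold change of 0.22 ± 0.03 had the lowest adjusted p of the members (adjusted p = 0.00123, edgeR). A small part of ENO3, 2.59% of its merged exon bases and none of its canonical transcript, is shared with PFN1 on the opposite strand, and PFN1 was itself called higher at a log2 fold change of 0.15 (adjusted p = 0.0472, edgeR). ENO1 was at 1655 and 1603 CPM in 2-D and 1636 and 1653 CPM in 3-D, and its libraries overlapped (log2 fold change 0.01 ± 0.03). ENO2, the neuronal type, was at 69.5 and 69.3 CPM in 2-D and 69.9 and 64.9 CPM in 3-D. ENO3 thus held 9.10% ± 0.220 (SD, n = 2) of enolase transcripts per length in 2-D and 10.3% ± 0.229 (SD, n = 2) in 3-D, while ENO1 held 86.4% ± 0.296 and 85.4% ± 0.0237. The exact two-sided permutation p of both shares was 0.333, the smallest possible.

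PKM (chr15:72199029-72231819, ENSG00000067225), the pyruvate kinase of most tissues, was at 635 and 630 CPM in 2-D and 710 and 718 CPM in 3-D. The gap between the conditions was far wider than that between replicates, and the log2 fold change was 0.17 ± 0.03 (adjusted p = 0.00318, edgeR). It ranged from 0.17 to 0.18 with each library left out, and was 0.11 with library size only, still called. Counts per gene do not tell the PKM1 and PKM2 isoforms apart.

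**Figure D3:**
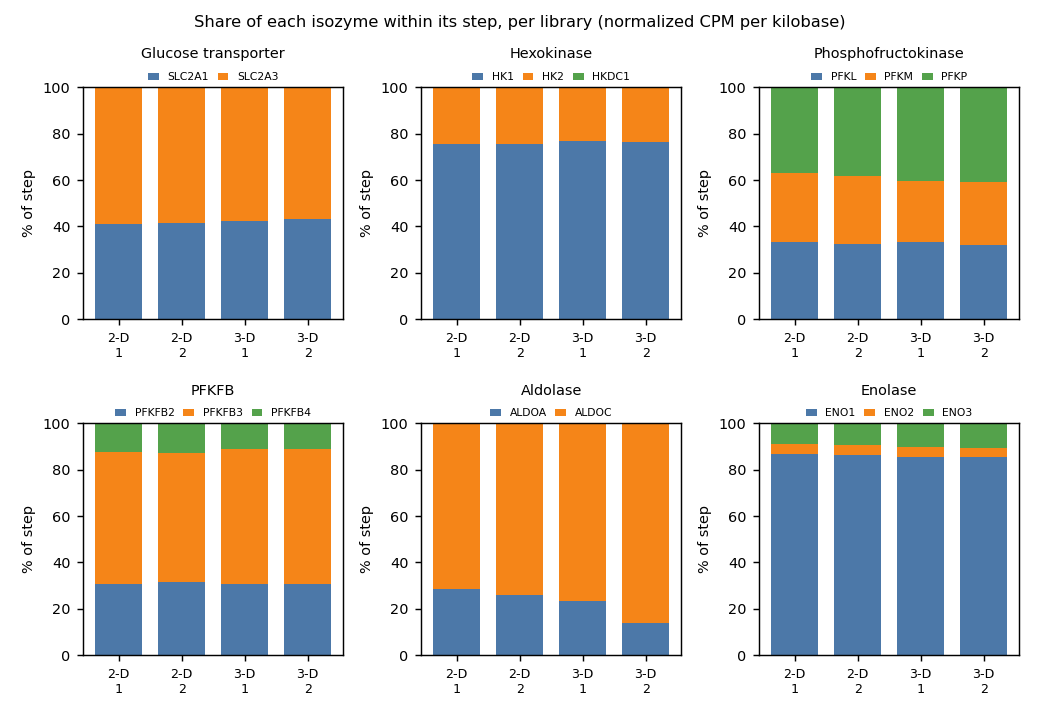
Share of each isozyme within its step (y axis, % of the summed normalized CPM per kilobase) in each of the 4 libraries (x axis, 2-D and 3-D replicates 1 and 2), for 6 steps with more than 1 gene. Most shares are nearly level, PFKP rises from 37.7% to 40.7% and ENO3 from 9.10% to 10.3% between the means of 2-D and 3-D, and ALDOA drops from 27.4% to 18.7% with 3-D replicate 2 lowest. The aldolase shares are uncertain, as ALDOA shares exons with other counted genes.

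In the pentose phosphate pathway, PGD and TKT were called higher and RPE lower. PGD (chr1:10398592-10420511, ENSG00000142657), the phosphogluconate dehydrogenase that yields NADPH and ribulose phosphate, was at 257 and 250 CPM in 2-D and 301 and 290 CPM in 3-D. Both 3-D libraries were higher, and the log2 fold change of 0.22 ± 0.03, or 16.5%, was the largest rise among the members (adjusted p = 0.00136, edgeR). It lay between 0.19 and 0.25 with each library left out. PGLS, the lactonase before it, was at 15.0 and 13.6 CPM in 2-D and 13.8 and 16.4 CPM in 3-D, so its libraries overlapped (adjusted p = 0.760, edgeR).

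In the non-oxidative arm, RPE (chr2:210002565-210022260, ENSG00000197713), the epimerase that turns ribulose phosphate into xylulose phosphate, was at 77.5 and 78.8 CPM in 2-D and 71.4 and 68.4 CPM in 3-D. Both 3-D libraries were lower, with a log2 fold change of -0.16 ± 0.04 (adjusted p = 0.0204, edgeR). The call was lost without 2-D replicate 1, 2-D replicate 2 or 3-D replicate 2, at log2 fold changes of -0.17, -0.15 and -0.13. It was also lost with offsets for length and GC content, at a log2 fold change of -0.09 (adjusted p = 0.147). DESeq2 and the likelihood ratio test gave adjusted p of 0.169 and 0.0888. RPE shares 23.8% of its merged exon bases with KANSL1L on the opposite strand, which was at a log2 fold change of -0.14 (adjusted p = 0.288, edgeR). RPIA, the isomerase that works on the same ribulose phosphate, was at 18.2 and 19.9 CPM in 2-D and 17.0 and 17.3 CPM in 3-D and was not called (adjusted p = 0.312, edgeR).

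TKT (chr3:53224712-53256052, ENSG00000163931), the transketolase that hands sugar back to glycolysis, was at 589 and 578 CPM in 2-D and 631 and 644 CPM in 3-D. The 3-D libraries were both higher, with a log2 fold change of 0.13 ± 0.03 (adjusted p = 0.0209, edgeR). The call was lost without 2-D replicate 1 or 2-D replicate 2, at log2 fold changes of 0.14 and 0.12. The log2 fold change was 0.07 with offsets for length and GC content (adjusted p = 0.160) and 0.06 with library size only (adjusted p = 0.234). The likelihood ratio test and thinning of 2-D counts to the depth of 3-D gave adjusted p of 0.195 and 0.0509. TALDO1, the transaldolase, lay between 131 and 135 CPM in all libraries (log2 fold change 0.00 ± 0.03). The 4 genes of the arm summed to 820 and 808 CPM in 2-D and 853 and 863 CPM in 3-D, and TKT made up most of that sum. PGM1 and PGM2, which link glucose phosphate to glycogen and pentose phosphate pools, lay between 57.2 and 58.5 CPM and between 34.8 and 39.6 CPM, and neither was called.

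**Figure D4:**
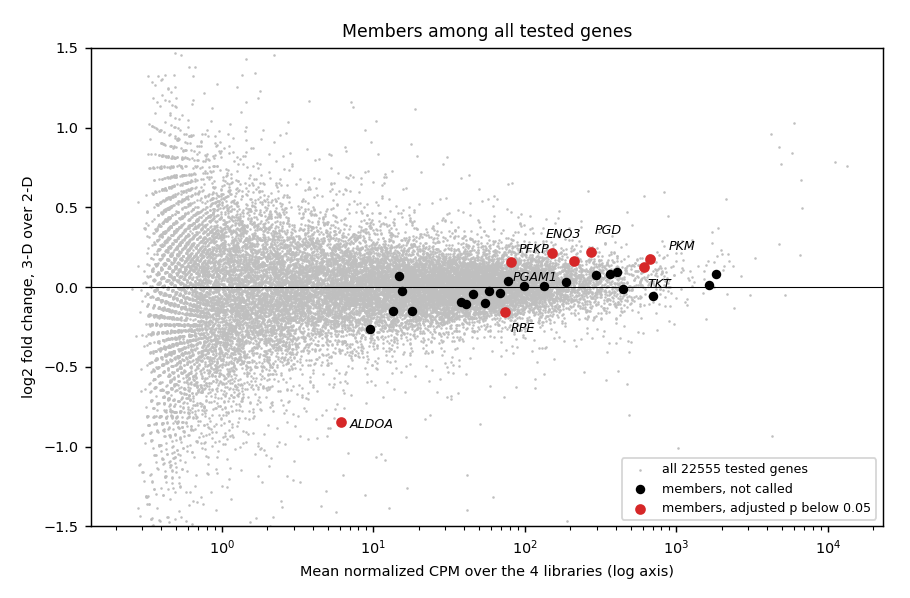
Log2 fold change, 3-D relative to 2-D (y axis) against the mean normalized CPM over the 4 libraries (x axis, log axis) for all 22555 tested genes (grey), with members that were not called in black and the 8 called members in red and named. Of the called members, 7 lie within the grey cloud at higher levels, and ALDOA lies at its lower edge.

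The promoters of the called members are shown where the RefSeq table (GRCh38.p14) lists a single start for the gene, as the 250 bases before that start, 5′ to 3′ on the strand of the gene. Capitals mark the motifs CACGTG (the E-box that MYC family factors bind), ACGTG and GCGTG (the core of hypoxia response elements), and TGACNNNGC (the core of antioxidant response elements), on either strand. Every CACGTG also holds ACGTG on both strands. The windows are chr1:10398814-10399063 on the plus strand for PGD, chr3:53256023-53256272 on the minus strand for TKT, chr15:72231191-72231440 on the minus strand for PKM, chr10:97427568-97427817 on the plus strand for PGAM1 and chr2:210002388-210002637 on the plus strand for RPE.
PGD: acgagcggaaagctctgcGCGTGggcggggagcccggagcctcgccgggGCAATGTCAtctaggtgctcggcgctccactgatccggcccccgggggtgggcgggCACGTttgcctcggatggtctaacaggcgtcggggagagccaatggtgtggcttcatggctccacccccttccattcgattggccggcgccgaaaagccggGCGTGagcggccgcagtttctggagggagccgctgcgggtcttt
TKT: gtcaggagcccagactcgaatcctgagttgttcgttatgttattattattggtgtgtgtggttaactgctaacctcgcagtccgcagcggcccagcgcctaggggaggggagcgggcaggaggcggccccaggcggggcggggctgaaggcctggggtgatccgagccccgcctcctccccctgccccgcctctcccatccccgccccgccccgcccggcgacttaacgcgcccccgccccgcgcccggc
PKM: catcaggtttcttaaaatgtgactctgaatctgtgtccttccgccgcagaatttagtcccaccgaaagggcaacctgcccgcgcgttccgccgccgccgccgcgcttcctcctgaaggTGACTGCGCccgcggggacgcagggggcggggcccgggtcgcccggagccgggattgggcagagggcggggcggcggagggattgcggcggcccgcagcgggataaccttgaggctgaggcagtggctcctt
PGAM1: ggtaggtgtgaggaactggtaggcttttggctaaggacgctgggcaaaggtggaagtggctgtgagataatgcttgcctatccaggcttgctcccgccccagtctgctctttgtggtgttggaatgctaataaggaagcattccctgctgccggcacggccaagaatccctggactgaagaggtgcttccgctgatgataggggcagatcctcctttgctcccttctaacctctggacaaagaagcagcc
RPE: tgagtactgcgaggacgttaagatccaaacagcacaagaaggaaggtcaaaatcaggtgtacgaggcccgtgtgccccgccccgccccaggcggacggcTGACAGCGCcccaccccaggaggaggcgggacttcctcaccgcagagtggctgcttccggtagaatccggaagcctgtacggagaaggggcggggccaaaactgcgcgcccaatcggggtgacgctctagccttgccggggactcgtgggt
PGD, which was higher in 3-D, and RPE, which was lower, both hold the antioxidant core, as does PKM. Of the promoters shown, only that of PGD holds the hypoxia cores, with 1 ACGTG and 2 GCGTG. The windows of TKT and PGAM1 hold none of the marked motifs. Those of PGD, PKM and PGAM1 lie inside the gene positions given above, which begin further upstream. Bases before those outer starts were not examined. The called members with several starts are not shown. Before at least 1 start, PFKP holds ACGTG and GCGTG, ENO3 holds GCGTG, and ALDOA holds ACGTG and CACGTG. Of the 31 members 29 had a listed start, with 52 starts in all, and windows of 1 gene can overlap. The antioxidant core lay before 7 of the 52 starts, or 13.5%, against 10.9% of the 35116 promoters of the table. ACGTG lay before 34.6% of the members' starts against 18.5% of all, GCGTG before 30.8% against 32.2%, and CACGTG before 11.5% against 6.34%. The GC box GGGCGG, which is not marked, lay before 59.6% against 42.6%, and the median GC content of the members' windows was 68.2% against 58.0%. A match of letters is a description and not a binding site.

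Of the 35 other genes of the same pathways, such as minor isozymes, gluconeogenic enzymes and further sugar transporters, 29 were tested and 2 were called, against 7.9% of all tested genes. Only 12 of the 29 had a mean of at least 10 CPM, and 2 of these 12 were called, against 15.1% of all such genes. G6PC3, a ubiquitous glucose phosphatase, was at 31.6 and 29.99 CPM in 2-D and 38.6 and 38.4 CPM in 3-D. Both 3-D libraries were higher, and the log2 fold change of 0.32 ± 0.06 passed (adjusted p = 0.00568, edgeR). PGM2L1, which makes the glucose bisphosphate that primes phosphoglucomutases, was at 86.4 and 88.4 CPM in 2-D and 81.0 and 77.9 CPM in 3-D, a fall of 0.14 on the log2 scale (adjusted p = 0.0350, edgeR). The median log2 fold change of the 29 genes was -0.11, against -1e-04 over all tested genes, with 5 values above 0 and 24 below.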

How the data were processed

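Sequencing covered 2 libraries of Elf1 cells in each condition. Libraries were made by the authors after depletion of ribosomal RNA and read as paired ends. The authors trimmed with Trim Galore 0.6.3, mapped to hg38 with HISAT2 2.1.0 and counted genes of GENCODE release 30 with featureCounts 1.6.4. The deposited values are raw counts for each gene and library. The deposited table of DESeq2-normalized values and the authors' test results was not used. Strand setting and the handling of reads that fit several genes are not given in the sources used here.

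Counts were tested with edgeR 4.0.16 in R 4.3.3 (TMM, filterByExpr, quasi-likelihood test, condition alone, Benjamini-Hochberg over 22555 genes). An error after ± is an SE for fold changes and an SD for levels and shares. P-values measure the spread between these libraries, estimated jointly for both conditions and moderated across all genes. Replicates differed more in 3-D: a chi-square of counts between replicates, over its degrees of freedom, was 3.915 in 3-D and 2.274 in 2-D. For the members alone it was 3.884 in 3-D and 1.949 in 2-D. The biological coefficient of variation was 5.10%, and counting error adds to it, most for members with few counts such as ALDOA. Symbols, positions and lengths are of GENCODE release 44, which matched 60295 of 60564 identifiers, and the others held 0.122% of counts. Copies were found with minimap2 2.31-r1302 on the canonical transcripts (at least 80% of the transcript at 98% identity). Tables and plots used Python 3.11.15, pandas 2.3.3, numpy 2.4.6 and matplotlib 3.10.9. The procedure was run on simulated counts that had the same spread in both conditions and larger changes than most called here. No result here rests on that run. Every member is named; of the other pathway and glycogen genes, those that were called are named. The members and lists were chosen with earlier results of these data known, and the alternatives were refits with DESeq2 1.42.0 or edgeR described in the closing section.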

Additional observations from a re-analysis of the deposited data

How the results depend on the processing

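Over 11 alternative settings and 4 fits that left out 1 library each, 21 of the 30 tested members kept one direction, and 387 of the 448 values with an adjusted p kept direction and call. DESeq2 gave 2 members no adjusted p, ALDOA among them. Members called higher and lower (6 and 2) were 3 and 1 with the likelihood ratio test, 5 and 0 with DESeq2, 3 and 4 with library size only, 4 and 1 with offsets for length and GC content, and 5 and 1 with those offsets and the replicate block. With each library left out they were 3 to 9 higher and 1 to 2 lower. Calls over all tested genes (1782) were 1139 with the likelihood ratio test, 794 with DESeq2, 2486 with no filter on low counts and 974 to 2643 with each library left out. The fits with 3 libraries assume that the lone library varies like the other condition. With the replicate number as a block, the same 8 members and 2167 genes were called. The numbers pair no samples by the labels, and the deviations of the same-numbered libraries correlated at -0.13 over 10211 genes; with crossed numbers, chosen after seeing the data, 8 members and 2212 genes were called. The median of the members ranged from -0.06 (library size only) to 0.01. Values that turned direction all belonged to members that were not called and were at most 0.06 in size. With library size only, HK2 was at -0.0577, GPI at -0.0321, PFKL at -0.0282, ENO1 at -0.0506 and TALDO1 at -0.0607. With offsets, without and with the block, HK2 was at -0.0025 and -0.0026, GPI at -0.007 and -0.0067, PFKL at -0.0374 and -0.0375, ENO1 at -0.0051 and -0.0049, BPGM at 0.0157 and 0.0175, and TALDO1 at -0.002 and -0.0021. With at least 10 counts in every library HK2 was at -9e-04 and TALDO1 at -0.0039, and after thinning of 2-D counts to the depth of 3-D, HK2 was at -0.0014 and TALDO1 at -0.0134. With each library left out, HK2 ranged from -0.0022 to 0.0186, PFKFB3 from -0.0873 to 0.0069, ENO1 from -0.0093 to 0.0364, ENO2 from -0.0944 to 0.013, BPGM from -0.0876 to 0.0337, PGLS from -0.0565 to 0.1951 and TALDO1 from -0.0212 to 0.0287. The cause was not tested. Adding the counts of pseudogenes named after a member changed no call, and the 2 near-identical PGAM1 copies were not among these. Differences in isozyme shares, without division by length or per canonical transcript (added after seeing the data), kept their sign in all 36 values. With each library left out, 5 values, of PFKL, PFKFB2, PGM1 and PGM2, changed sign, and the difference in the ALDOA share ran from -13.4 to -3.99 percentage points.

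With 2 libraries per condition, exact permutation tests cannot go below a p of 0.333, and a call rests on the spread estimated across all genes. TKT, PFKP, PGAM1 and RPE were called in 6 to 8 of the 11 settings.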

Other observations

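Glycogen synthesis and breakdown, which exchange glucose phosphate with glycolysis, were measured in 17 genes, all tested. PHKA1, the regulatory alpha subunit of muscle type phosphorylase kinase, was the single gene called, at 121 and 117 CPM in 2-D and 105 and 109 CPM in 3-D, a log2 fold change of -0.15 ± 0.03 (SE, adjusted p = 0.0119, edgeR). GYS1, the glycogen synthase outside liver, was at 37.6 and 36.0 CPM in 2-D and 38.3 and 42.7 CPM in 3-D and was not called (adjusted p = 0.235, edgeR). PPP1R3B and UGP2, a glycogen-targeting phosphatase subunit and the enzyme that makes UDP-glucose, were the most abundant by CPM, at 642 to 674 and 524 to 556 CPM, and were not called. The median log2 fold change of the 17 genes was -0.05, with 7 values above 0 and 10 below, and 1 of 17 called stands against 7.9% of all tested genes. Among the 12 with a mean of at least 10 CPM 1 was called, against 15.1% of all such genes.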
